A study of Homo sapiens with 9 samples.

Results

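The genes described here are p53 family members and genes that p53 is known to activate, read in 3 pancreatic cancer cell lines. They were chosen by symbol from the deposited table of gene counts, and all 9 were found among its 42717 genes: TP63, TP73, MDM2, CDKN1A, GDF15, SFN, BBC3, FAS and SESN1. The lines S2-007, S2-020 and S2-028 are established sublines of SUIT-2, a human pancreatic ductal adenocarcinoma line, and each was sequenced as 3 libraries (9 in all) from untreated cells grown in DMEM with 10% fetal bovine serum. In the study, S2-007 carried maspin in the nucleus and the cytoplasm, S2-028 carried it mainly in the cytoplasm, and S2-020 had little of it. No gene was altered in any of the lines sequenced, so a difference between lines is a difference between sublines. Each line is a single subline, and nothing in the labels says whether its libraries came from separate cultures, so that p-values measure only the spread between these libraries, which may be technical.

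The p53 protein is a transcription factor that is stabilized by DNA damage and other stress and then activates genes of growth arrest, apoptosis, DNA repair and metabolism. TP63 and TP73 encode relatives that bind similar DNA sequences, p63 being best known as the master regulator of basal and squamous epithelium. MDM2 is both a target of p53 and the ubiquitin ligase that degrades it. SERPINB5, the gene of maspin, is itself among the genes that p53 family proteins are known to activate, which is why the family is of interest in these lines.

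p53 binds a pair of 10-base half-sites, each made of 3 purines, a core of 4 bases and 3 pyrimidines. The core is CATG in the strongest elements, and CAAG, CTTG and the palindrome CTAG also occur. To show what such an element looks like at these genes, the 5 kb on each side of each gene start was searched on both strands of GRCh38 for 2 adjacent half-sites with both cores intact and at most 2 mismatches to the consensus in the other positions. Of the 9 genes, 4 held a match, compared with 5.29% of the 26949 genes searched in the same way. A single RefSeq start was used per gene, and a match could lie anywhere in the window, before the gene, in an intron or past the end of a short gene. Of the 4 matches, 3 are printed below on the strand of the gene, each with 20 bases on either side (60 bases in all) and with the cores of both half-sites in capitals.
CDKN1A: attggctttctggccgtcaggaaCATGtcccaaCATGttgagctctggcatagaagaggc
GDF15: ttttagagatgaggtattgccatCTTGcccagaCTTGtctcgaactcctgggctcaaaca
FAS: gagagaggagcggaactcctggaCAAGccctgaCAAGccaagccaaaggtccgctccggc

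The element of CDKN1A lay at chr6:36676449-36676468 (plus strand), at -2255 from the RefSeq start used (36678714) and outside the canonical transcript. The RefSeq span of the whole CDKN1A gene, given with its levels, begins further upstream and overlaps the element. That of GDF15 was at chr19:18385308-18385327 (plus strand), at -840 from the start, also outside the canonical transcript. It lay within the GENCODE span of GDF15, which begins before the RefSeq span given with its levels. In FAS the match lay in intron 1, at chr10:88991309-88991328 (plus strand), 521 bases after the RefSeq start used (88990798) and within the span of the neighbouring gene ACTA2. The RefSeq span of the whole FAS gene also begins well before this start. A match is a description of the sequence, and binding was not measured.

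Libraries held 60328748 to 86253923 counted reads, and log2 CPM correlated across genes at r = 0.976 to 0.981 within a line and 0.941 to 0.951 between lines. Levels are given as normalized CPM, the reads of a gene as a share of its library, after the TMM correction for library composition. The labelled epithelial origin was checked with KRT8, KRT18, KRT19, EPCAM and CDH1, which together reached 9322 to 9817 CPM in S2-007, 14381 to 16875 in S2-028 and 4268 to 5384 in S2-020. In S2-020, KRT19 was at 90.2 to 116 CPM and CDH1, the gene of E-cadherin, at 4.24 to 4.75, whereas CDH1 was at 52.0 or more in every library of the other lines. Markers of fibroblasts, endothelium, blood and acinar cells together reached 8.90 to 12.8 CPM in any library. Of these, the endothelial marker PECAM1 alone was at 5.23 to 8.87 CPM. CD3E was at 0 in all S2-007 libraries and at 0.0962 to 0.361 CPM in those of the other lines. The epithelial markers thus differed between the same lines as the genes below, and their part in the results was not tested.

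Lines were compared in pairs by the quasi-likelihood test of edgeR, with p-values adjusted by Benjamini-Hochberg over every gene that passed the expression filter, and SE is the standard error of the log2 fold change (log2FC). A gene counted as changed when its adjusted p was under 0.05 and the lines differed by 1.5-fold or more. By this rule 5 of the 9 genes were changed in at least 1 of the 3 comparisons and 4 (TP63, TP73, MDM2 and SESN1) in none. In S2-028 vs. S2-007, 1 gene was upregulated and 2 were downregulated, which is 33.3% of the 9, against 18.4% of all 26371 genes tested (10.2% upregulated and 8.19% downregulated). In S2-020 vs. S2-007, 1 was upregulated and 3 were downregulated (44.4%, against 21.6% of all genes, 9.57% up and 12.1% down). In S2-028 vs. S2-020, 3 were upregulated and 2 were downregulated (55.6%, against 22.2% of all genes, 12.1% up and 10.1% down). The libraries of the compared lines did not overlap for 7, 5 and 7 of the 9 genes, and for 43.3%, 48.5% and 48.9% of all genes tested, so that lack of overlap is common in these data. Each line enters 2 of the 3 comparisons, so they are not independent of each other.

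**Figure D1:**
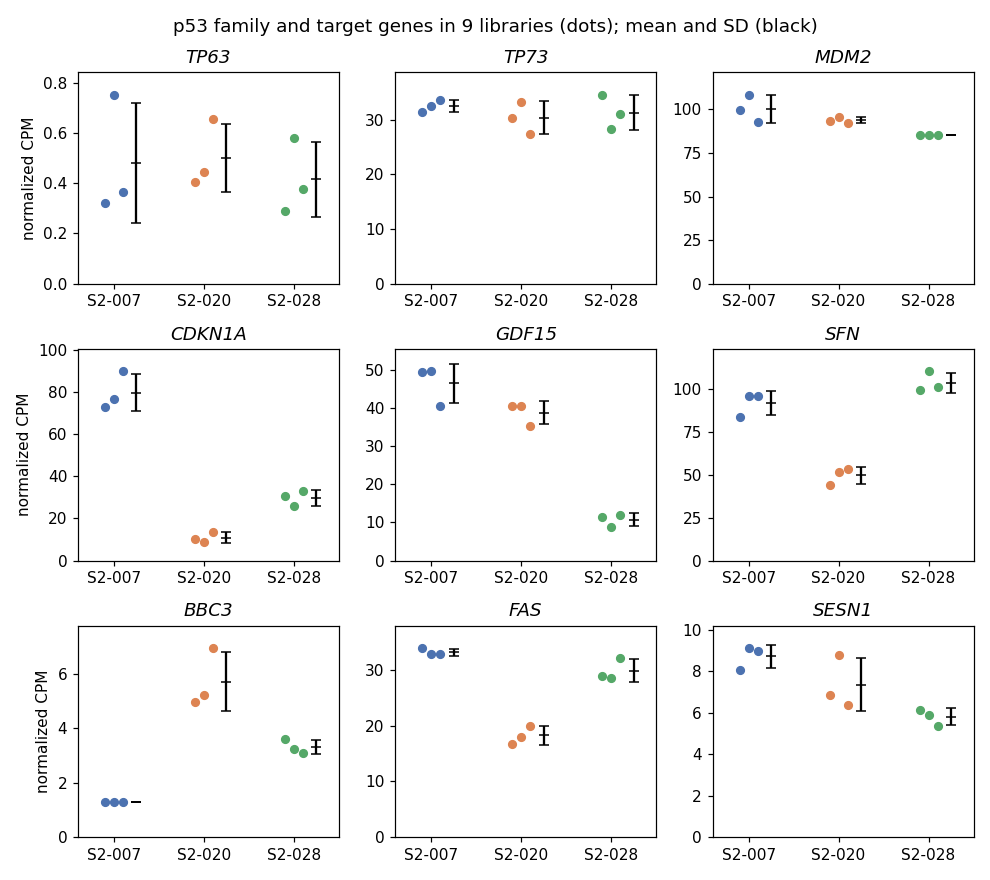
Normalized CPM (vertical axis of each panel, starting at 0) of the 9 genes in every library of S2-007, S2-020 and S2-028, with the mean and SD (n = 3) in black. CDKN1A stood at 73.0 to 89.8 in S2-007 and 9.04 to 13.7 in S2-020, BBC3 was lowest in S2-007, and TP73 overlapped between all lines.

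Neither relative of p53 passed the test in any comparison. TP63 (chr3:189596746-189897276 in GRCh38, as RefSeq gives the whole gene here and below) was barely expressed, with 18 to 56 reads per library. It stood at 0.321, 0.753 and 0.367 CPM in S2-007, at 0.404, 0.445 and 0.655 in S2-020 and at 0.290, 0.580 and 0.377 in S2-028, so that all 3 lines overlapped. Its log2FC was -0.21 in S2-028 vs. S2-007 (SE 0.503, edgeR adjusted p = 0.824). With errors of this size, between 0.450 and 0.503 in the 3 comparisons, a change of 1.5-fold in either direction was not detectable at this depth.

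TP73 (chr1:3652516-3736201) was expressed in all lines, with 31.4, 32.5 and 33.6 CPM in S2-007, 30.4, 33.3 and 27.3 in S2-020 and 34.6, 28.3 and 30.999 in S2-028. The lines overlapped in all comparisons, and the log2FC values were -0.05 (S2-028 vs. S2-007, SE 0.0841), -0.13 (S2-020 vs. S2-007, SE 0.0765) and 0.05 (S2-028 vs. S2-020, SE 0.0899), with adjusted p of 0.207 or more in each. Per kb of canonical transcript, TP73 stood at 5.84 to 6.26 CPM in the means of the 3 lines and TP63 at 0.0841 to 0.101. Gene counts do not tell the long (TA) from the N-terminally truncated forms of either relative, which are known to act differently. Of the exon bases of TP73, 9.35% lie under the antisense gene TP73-AS1, and how strand was counted is not given in the sources used here.

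MDM2 (chr12:68808172-68850686), the negative regulator of p53, differed by less than 1.5-fold between the lines. It had 99.8, 109 and 92.7 CPM in S2-007, 93.2, 95.8 and 92.4 in S2-020 and 85.1, 85.4 and 85.4 in S2-028. S2-028 was the lowest and did not overlap with either other line. Its log2FC of -0.23 vs. S2-007 (SE 0.0671, edgeR adjusted p = 0.00935) fell short of 1.5-fold, and the adjusted p lay between 0.00164 and 0.128 over the other settings. Other genes share 10.9% of the transcript sequence of MDM2 in words of 31 bases, so the counting could have split some of its reads.

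Of the 9 genes, CDKN1A (chr6:36676463-36687332) had the widest range between line means. It encodes p21, the inhibitor of cyclin-dependent kinases through which p53 stops the cell cycle. It was at 73.0, 76.5 and 89.8 CPM in S2-007, at 30.6, 25.7 and 33.0 in S2-028 and at 10.1, 9.04 and 13.7 in S2-020. No library of one line reached those of another, and the order was S2-007, S2-028, S2-020 with every step past the test. CDKN1A fell by 1.42 on the log2 scale in S2-028 vs. S2-007 (SE 0.0890, edgeR adjusted p = 3.51e-11). In S2-020 vs. S2-007 it fell by 2.90 (SE 0.113, edgeR adjusted p = 4.12e-14), which left 13.4% of the S2-007 level. S2-028 exceeded S2-020 by 1.45 (SE 0.130, edgeR adjusted p = 2.12e-08). When any 1 library was dropped, the S2-020 vs. S2-007 value stayed between -3.09 and -2.77. The antisense gene DINOL lies over 4.87% of its exon bases.

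SFN (chr1:26863149-26864456) encodes 14-3-3 sigma, which holds back the G2/M transition and is found in epithelial cells. It was at 83.7, 95.7 and 96.1 CPM in S2-007, at 99.2, 110.2 and 101 in S2-028 and at 43.9, 51.8 and 53.1 in S2-020. S2-020 lay apart below the other lines. SFN fell by 0.92 in S2-020 vs. S2-007 (SE 0.0713, edgeR adjusted p = 1.70e-09) and was higher by 1.06 in S2-028 vs. S2-020 (SE 0.0721). The 0.18 by which S2-028 exceeded S2-007 (SE 0.0656, edgeR adjusted p = 0.0442) fell short of 1.5-fold.

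Among the apoptosis genes, BBC3 and FAS went in opposite directions in S2-020 vs. S2-007. BBC3 (chr19:47220824-47232860) encodes PUMA, a BH3-only protein that activates BAX and BAK at the mitochondria. It was at 1.31, 1.30 and 1.30 CPM in S2-007, at 3.61, 3.23 and 3.12 in S2-028 and at 4.97, 5.24 and 6.94 in S2-020. The lines did not overlap, and their order was the reverse of that of CDKN1A. BBC3 was upregulated by 2.10 on the log2 scale in S2-020 vs. S2-007 (SE 0.190, edgeR adjusted p = 1.69e-08) and by 1.35 in S2-028 vs. S2-007 (SE 0.214, edgeR adjusted p = 2.93e-05). It was lower by a log2FC of -0.78 in S2-028 vs. S2-020 (SE 0.172, edgeR adjusted p = 9.52e-04), between -0.88 and -0.62 with each library left out. The gene is low, with 96 to 98 reads in the S2-007 libraries, and the microRNA genes MIR3190 and MIR3191 overlap less than 5% of its exon bases.

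FAS (chr10:88964050-89017059), a death receptor at the cell surface, was at 33.8, 32.7 and 32.7 CPM in S2-007, at 28.8, 28.4 and 32.1 in S2-028 and at 16.7, 17.96 and 19.97 in S2-020. As with SFN, S2-020 stood below both other lines. The log2FC was -0.89 in S2-020 vs. S2-007 (SE 0.0797, edgeR adjusted p = 1.43e-08) and 0.71 in S2-028 vs. S2-020 (SE 0.0897). Between S2-028 and S2-007 it was -0.15 (SE 0.0787, edgeR adjusted p = 0.170).

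GDF15 (chr19:18386158-18389176) encodes a secreted cytokine of the TGF-beta superfamily that responds to p53 and also to the integrated stress response. It was at 49.4, 49.6 and 40.7 CPM in S2-007, at 40.6, 40.4 and 35.3 in S2-020 and at 11.5, 8.74 and 11.96 in S2-028. Here S2-028 was the line that stood apart, below the other lines. GDF15 fell by 2.12 on the log2 scale in S2-028 vs. S2-007 (SE 0.114, edgeR adjusted p = 3.01e-12) and by 1.85 in S2-028 vs. S2-020 (SE 0.108, edgeR adjusted p = 3.38e-11). S2-020 differed from S2-007 by -0.30 (SE 0.0831, edgeR adjusted p = 0.00697), under the fold-change threshold, and the adjusted p was up to 0.0634 in another setting.

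SESN1 (chr6:108984309-109094846) encodes sestrin 1, a stress protein that restrains mTORC1. It was at 8.09, 9.11 and 8.96 CPM in S2-007, at 6.85, 8.80 and 6.39 in S2-020 and at 6.16, 5.91 and 5.38 in S2-028. S2-028 was lowest, without overlap with the other lines. Its log2FC of -0.58 vs. S2-007 (SE 0.134, edgeR adjusted p = 0.00152) lay just under the fold-change threshold.

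**Figure D2:**
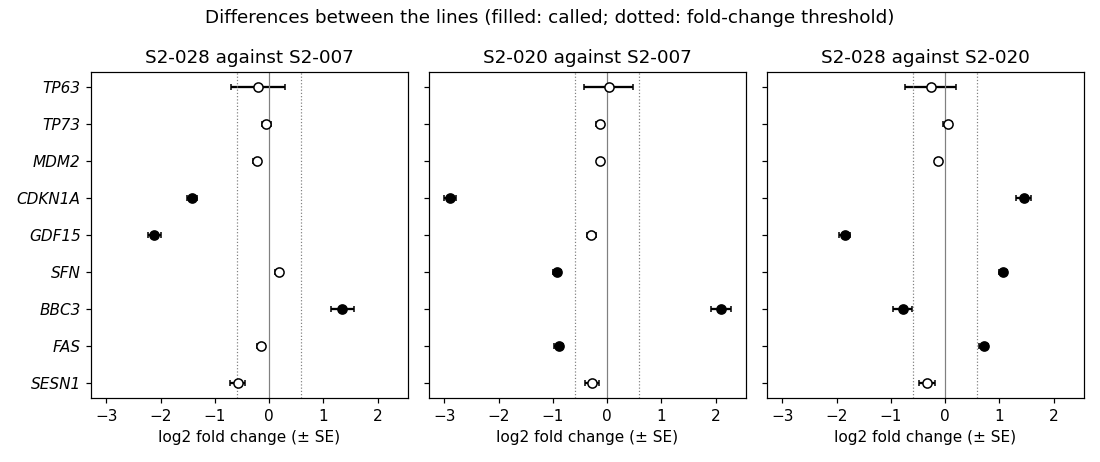
Log2FC and SE (horizontal axis) of the 9 genes in the 3 comparisons, with filled dots for called genes and dotted lines at the 1.5-fold threshold in either direction. CDKN1A and BBC3 were called in all 3 comparisons and in opposite directions, and GDF15, SFN and FAS in 2 each.

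SERPINB5 is given beside the family because these proteins are known to activate it. It was at 203, 221 and 211 CPM in S2-007, at 26.3, 26.1 and 30.9 in S2-028 and at 6.91, 6.69 and 6.08 in S2-020. The order of the lines was that of CDKN1A, and the reverse of that of BBC3. The log2FC in S2-020 vs. S2-007 was -5.04 (SE 0.0700, edgeR adjusted p = 1.02e-20), and S2-028 exceeded S2-020 by 2.08 (SE 0.104).

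Genes near a member were read to see whether its neighbourhood moved with it. Around CDKN1A, the 50 nearest genes tested had a median log2FC of -0.09 in S2-028 vs. S2-007 and of less than 0.01 in size in S2-020 vs. S2-007, and 2 and 1 of them were as low as CDKN1A. The median around GDF15 was -0.03 in S2-028 vs. S2-007, with 2 of 50 neighbours as low. Around BBC3 the neighbours were themselves higher than in S2-007, with medians of 0.33 in S2-028 and 0.42 in S2-020, where 2 and 0 of 50 reached its value. The neighbours of FAS had a median of -0.39 in S2-020 vs. S2-007, and 7 of 50 were as low as FAS. DNA copy number was not measured, and the part of these neighbourhoods in the results was not tested.

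**Figure D3:**
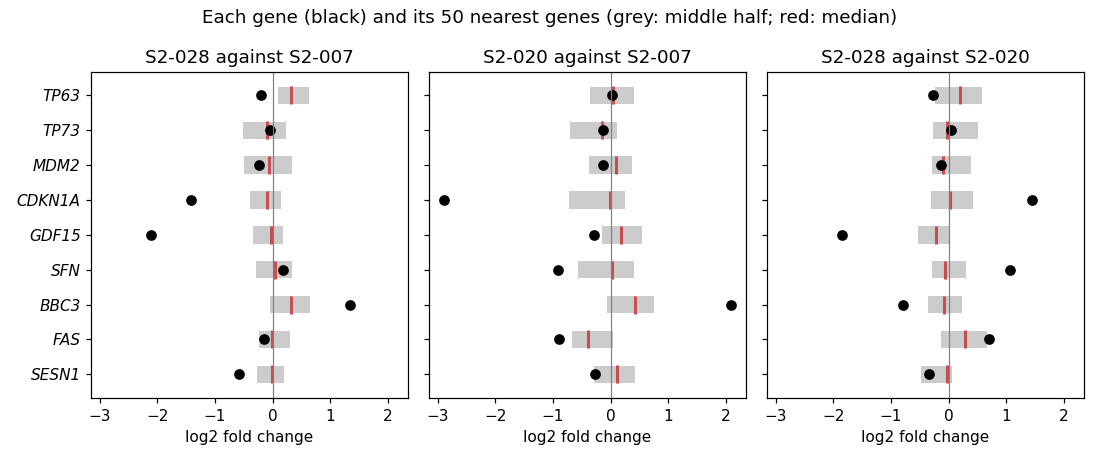
Log2FC (horizontal axis) of each of the 9 genes (black dot), and the median (red) and interquartile range (grey bar) of its 50 nearest genes tested, in the 3 comparisons. Each called gene lay outside its grey bar wherever it was called, and the bars around BBC3 were centred above 0 in both comparisons with S2-007.

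The genes whose pattern was most like that of the 3 members with the widest range were found by Pearson's r of log2 CPM over the 9 libraries, among genes whose mean log2 CPM reached 3. With 3 lines r mostly describes the 3 line means, and many genes reached high values, 287 of them above 0.95 for CDKN1A. Those nearest to CDKN1A were LRRC75A (r = 0.997) and HYPK (r = 0.996). GDF15 was most like MBNL2 (r = 0.993), UBE2T (r = 0.992) and CCPG1 (r = 0.992). BBC3 was most like MOK (r = 0.993), DRAM1 (r = 0.993) and CITED4 (r = 0.992), and DRAM1 is itself a p53 target described below.

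The wider pathway was read from 3 lists of other p53 target genes with 49 genes in all, every one of which passed the expression filter. The targets moved in both directions in every comparison. In S2-028 vs. S2-007, 5 were upregulated and 7 downregulated (24.5%, against 18.4% of all genes), with a median log2FC of -0.07 over the 49. For S2-020 vs. S2-007 the counts were 8 and 5 (26.5%, against 21.6%), with a median of -0.02, and for S2-028 vs. S2-020 they were 6 and 8 (28.6%, against 22.2%), with a median of -0.29. The median of all genes was 0.00, -0.05 and 0.02.

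Of the 14 targets of growth arrest and feedback, 0 were upregulated and 4 downregulated in S2-028 vs. S2-007 (28.6%, against 18.4% of all genes). One of these was BTG2, an antiproliferative gene named here after its values were seen, which stood at 3.43 ± 0.243 CPM in S2-007 and 0.964 ± 0.674 in S2-028 (SD over 3 libraries, as for all values below), with a log2FC of -1.82 (SE 0.340) that ranged from -2.51 to -1.44 when any 1 library was dropped. Another was TP53INP1, a nuclear protein of p53-dependent stress, at -0.85 (SE 0.220). In S2-020 vs. S2-007, 1 was upregulated and 2 were downregulated (21.4%, against 21.6%), and in S2-028 vs. S2-020, 2 and 4 (42.9%, against 22.2%). PLK2, a polo-like kinase, was 75.2 ± 4.24 CPM in S2-007, 84.3 ± 4.06 in S2-028 and 159.8 ± 17.6 in S2-020, where it was higher than in S2-007 by 1.06 (log2FC, SE 0.0702). CCNG1, the gene of cyclin G1, was likewise highest in S2-020, at 180.3 ± 4.23 CPM against 97.7 ± 3.48 in S2-028 (log2FC of S2-028 vs. S2-020 -0.88, SE 0.0530). CCNG2, of cyclin G2, was lowest there, at 4.65 ± 0.319 CPM against 7.72 ± 1.26 in S2-007.

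Of the 17 apoptosis targets, 1 was downregulated and 0 were upregulated in S2-028 vs. S2-007 (5.88%, against 18.4% of all genes), 2 rose and 2 fell in S2-020 vs. S2-007 (23.5%, against 21.6%), and 1 rose and 1 fell in S2-028 vs. S2-020 (11.8%, against 22.2%). BAX, which permeabilizes the mitochondrial outer membrane, rose from 43.2 ± 3.46 CPM in S2-007 to 87.2 ± 4.95 in S2-020 (log2FC 0.98, SE 0.0641). PERP, a desmosomal protein that p53 and p63 both activate, rose as well, from 670.2 ± 25.5 to 1134 ± 82.4 CPM (0.73, SE 0.0543). TP53I3, an oxidoreductase of the oxidative stress response, fell in S2-020 from 32.9 ± 0.851 to 14.8 ± 0.875 CPM (-1.19, SE 0.0782) and in S2-028 to 19.9 ± 1.125 (-0.72, SE 0.0819).

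The 18 targets of DNA repair and metabolism had 5 upregulated and 2 downregulated genes in S2-028 vs. S2-007 (38.9%, against 18.4% of all genes), 5 and 1 in S2-020 vs. S2-007 (33.3%, against 21.6%) and 3 and 3 in S2-028 vs. S2-020 (33.3%, against 22.2%). DRAM1, a lysosomal protein of autophagy, was 8.57 ± 0.179 CPM in S2-007, 25.4 ± 0.909 in S2-028 and 41.9 ± 3.10 in S2-020, rising in both lines vs. S2-007 (1.57, SE 0.0965, and 2.26, SE 0.0830). SESN2, the sestrin that senses leucine and is also induced by ATF4, was 11.3 ± 0.877 CPM in S2-007, 13.6 ± 2.10 in S2-028 and 32.2 ± 1.43 in S2-020 (1.48 in S2-020 vs. S2-007, SE 0.0851), unlike SESN1. FUCA1, a lysosomal fucosidase, was highest in S2-028, at 17.5 ± 1.32 CPM against 8.63 ± 1.11 in S2-007 (1.02, SE 0.117). GLS2, a glutaminase, was 11.2 ± 0.372 CPM in S2-028 and 1.996 ± 0.403 in S2-007 (2.49, SE 0.164), and genes on the other strand cover 77.1% of its exons, so its reads are uncertain.

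Of 19 genes of proteins that act on p53, 1 was upregulated and 1 downregulated in S2-028 vs. S2-007 (10.5%, against 18.4% of all genes), 3 and 1 in S2-020 vs. S2-007 (21.1%, against 21.6%) and 1 and 2 in S2-028 vs. S2-020 (15.8%, against 22.2%). In no comparison did the share exceed that of all genes. Among those that changed were genes of the ASPP family, which steer p53 at its targets. PPP1R13L, of the inhibitor iASPP, was 56.6 ± 2.27 CPM in S2-028 against 28.9 ± 2.83 in S2-007 (0.97, SE 0.0803), while PPP1R13B, of the activator ASPP1, fell from 46.3 ± 2.54 to 24.4 ± 1.37 (-0.92, SE 0.0777). TP53BP2, of ASPP2, was highest in S2-020, at 63.9 ± 2.06 CPM against 38.03 ± 2.48 in S2-007 (0.72, SE 0.0624). HIPK2, a kinase that phosphorylates p53, was also highest in S2-020, at 720.9 ± 24.1 CPM against 370.4 ± 36.9 in S2-007 (0.93, SE 0.0568).

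Of the 17 basal and squamous genes that p63 is known to activate, 14 or 15 passed the filter in each comparison, and KRT6A and SPRR1B passed in none. They moved in both directions, with 3 upregulated and 3 downregulated in S2-028 vs. S2-007 (42.9% of those tested, against 18.4% of all genes), 2 and 5 in S2-020 vs. S2-007 (46.7%, against 21.6%) and 6 and 3 in S2-028 vs. S2-020 (60%, against 22.2%). COL17A1, the hemidesmosomal collagen, was 919.9 ± 42.5 CPM in S2-007, 258 ± 13.96 in S2-028 and 82.0 ± 4.39 in S2-020, falling in both vs. S2-007 (-1.83, SE 0.0596, and -3.52, SE 0.0564). KRT15, a basal keratin, was 15.1 ± 0.693 CPM in S2-007 and 1.33 ± 0.276 in S2-020 (-3.54, SE 0.150). S100A2, a calcium-binding protein, was 9.67 ± 0.537 CPM in S2-020 and 2.23 ± 0.386 in S2-028 (-2.11 in S2-028 vs. S2-020, SE 0.158). KRT5, named after its values were seen, had 24.3, 25.3 and 30.6 CPM in S2-020 and at most 0.230 in any library of the other lines, while TP63 overlapped between the lines.

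The cell cycle genes that are repressed through p21 and the DREAM complex, 18 in all, were read beside CDKN1A. In S2-020 vs. S2-007, where CDKN1A was lowest, 4 were upregulated and 0 downregulated (22.2%, against 21.6% of all genes, 9.57% up and 12.1% down). The median log2FC was 0.35 there, against -0.05 for all genes. CDC20, the mitotic activator of the anaphase-promoting complex, rose from 263.7 ± 16.7 to 497.9 ± 14.4 CPM (0.89, SE 0.0515), and MYBL2, of the transcription factor B-Myb, from 295.4 ± 22.9 to 494 ± 23.2 (0.71, SE 0.0553). In S2-028 vs. S2-007, 1 was upregulated and 0 downregulated (5.56%, against 18.4% of all genes, 10.2% up and 8.19% down). In S2-028 vs. S2-020, 0 were upregulated and 4 downregulated (22.2%, against 22.2% of all genes, 12.1% up and 10.1% down). The medians were 0.09 and -0.12. In both comparisons with S2-020 the share called was thus near that of all genes. The gene called in S2-028 vs. S2-007 was MCM2, of the replicative helicase, which rose from 195.3 ± 17.7 to 385.6 ± 32.5 CPM (0.99, SE 0.0708). MCM2 was also among those called in S2-020 vs. S2-007 (0.67, SE 0.0562). A gene on the other strand covers 23.6% of its exons. PLK1, the mitotic kinase, was 390.6 ± 17.6 CPM in S2-020 and 214.7 ± 10.1 in S2-028 (-0.86 in S2-028 vs. S2-020, SE 0.0528).

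**Figure D4:**
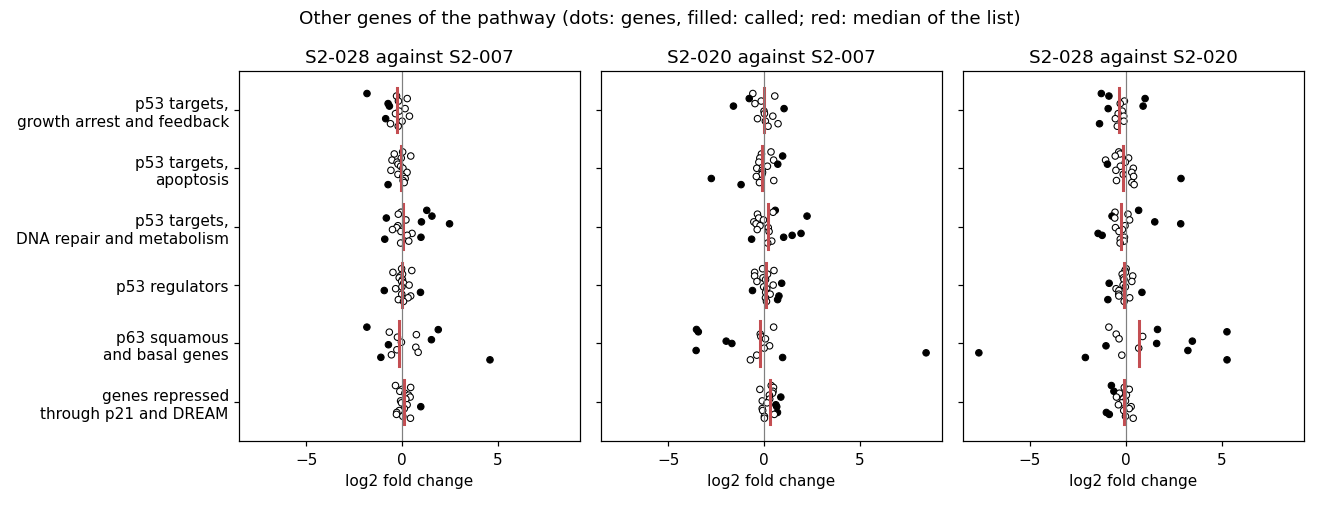
Log2FC (horizontal axis) of each gene of the 6 pathway lists in the 3 comparisons, with filled dots for called genes and red lines at the median of each list. The medians of the 3 p53 target lists lay between -0.34 and 0.22, and called genes of the p63 list lay far to both sides, with COL17A1 at -3.52 and KRT15 at -3.54 in S2-020 vs. S2-007.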

How the data were processed

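RNA of the 9 libraries was made into strand-specific libraries from poly(A)-selected RNA and sequenced on a NovaSeq instrument. Per the submitters' processing notes, the authors used Trimmomatic 0.39, BWA 0.7.17, SAMtools 1.12 and edgeR 3.16.5. They deposited whole-number counts of reads mapped to each gene (GRCh38.p14, 42717 genes), without normalization. The counting tool and its treatment of strand are not given in the sources used here. BWA does not join reads across introns, which can lower counts of genes with short exons. A further 2 lines name no gene and were left out. Beside the counts the authors deposited a rescaled signal and a TMM-scaled signal for each library (18 columns), which were not used.

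Counts were tested in R 4.3.3 with edgeR 4.0.16 after filterByExpr (minimum count 10, minimum total 15) and TMM normalization, by the quasi-likelihood F-test on the 6 libraries of each comparison. The text of the study names a likelihood ratio test, which was an alternative, as were DESeq2 1.42.0, RLE size factors, other filters, a fit of all 9 libraries, a replicate block and each library left out. Standard errors come from the fold change and the F statistic. The procedure was tested on simulated data. Printed CPM use TMM factors of all 9 libraries, and their logarithms a prior count of 2. Libraries of a line were not duplicates, with a chi-square per gene of at least 8.41. Of the gene identifiers, 42539 (99.6%) were found in RefSeq, whose starts were used with the hg38 sequence, and exon overlaps and transcript lengths come from GENCODE v44.

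The members and lists were chosen with earlier results of these data known. Named genes are the 9 members, SERPINB5 and, from each other list, the 4 genes with the widest range between line means among those called at least once whose mean log2 CPM reached 1. Some items that these rules name are not reported here.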

Additional observations from a re-analysis of the deposited data

How the results depend on the processing

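With 1 choice changed at a time, the numbers of called members, of called p53 targets and of all called genes stayed within 1.5-fold of those reported in every setting tried. The called members kept their calls and their directions in all of these settings. SESN1 in S2-028 vs. S2-007 passed the fold-change threshold with RLE size factors and with DESeq2 (both -0.59), and without replicate 1 of S2-007 or replicate 1 or 2 of S2-028 (-0.62, -0.63 and -0.60). Uncalled members changed sign when a library was left out, though they stayed uncalled. In S2-028 vs. S2-007, TP63 ranged from -0.52 to 0.28, being above 0 when replicate 2 of S2-007 was dropped, and TP73 from -0.14 to 0.013, being above 0 when replicate 2 of S2-028 was dropped. In S2-020 vs. S2-007, TP63 ranged from -0.21 to 0.53, and was below 0 when replicate 1 or 3 of S2-007 (-0.17 and -0.11) or replicate 3 of S2-020 was dropped. In S2-028 vs. S2-020, TP73 ranged from -0.034 to 0.13, and was below 0 when replicate 1 of S2-028 or replicate 3 of S2-020 was dropped. The labels number the libraries 1 to 3 in each line and do not say whether the numbers pair them. Same-numbered libraries showed no shared deviation (r between -0.0219 and 0.014), which cannot tell whether they were handled together. With the replicate block, 3, 4 and 5 members were called in the 3 comparisons, as without it, and 4865, 5650 and 5716 genes in all. Depth limits TP63 and BBC3, the members with the fewest reads.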
